A study of Homo sapiens with 4 samples.

Results

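The genes described here are 10 RNA-binding protein genes that are best known from embryos, neural progenitors and tumours: the Musashi genes MSI1 and MSI2, LIN28A and LIN28B, the IGF2 mRNA-binding proteins IGF2BP1, IGF2BP2 and IGF2BP3, and the neuronal ELAV-like genes ELAVL2, ELAVL3 and ELAVL4. All 10 were found by symbol among the 35606 genes of the count table. They were chosen on family membership and with the difference between the groups already known, above all the large difference in MSI1. The differences of these 10 genes between the groups are therefore given as a description: no p-value is printed for them, and whether a gene passed the threshold of the transcriptome-wide fit supports nothing here.

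Poly(A)-selected RNA of K562, a human leukaemia cell line that carries the BCR-ABL1 fusion and has erythroid features, was sequenced in 4 libraries. Of these, 2 came from cells that express JAZF1-SUZ12, a fusion of a Polycomb gene found in endometrial stromal tumours, and 2 from mock cells. The labels do not say how the fusion was introduced, what the mock cells received, or whether the libraries of a group came from separate cultures or clones. A p-value then measures only the spread between these libraries, which may be technical. The source label gives uterus, whereas the cell line label gives K562.

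Musashi proteins bind short motifs in 3′ untranslated regions and change the translation or stability of the message; MSI1 marks neural and epithelial stem cells, and MSI2 is the form used by blood stem cells and myeloid leukaemias. LIN28 proteins bind precursors of the let-7 microRNAs and block their maturation, and let-7 in turn represses LIN28 messages, which gives a switch between a fetal and an adult state. IGF2BP proteins bind and stabilise messages such as those of IGF2 and MYC, many of them through methylated adenosines, and IGF2BP1 and IGF2BP3 are largely silenced after birth. The neuronal ELAV-like proteins bind AU-rich elements and mark postmitotic neurons. In the red cell lineage, LIN28B and IGF2BP1 are known for favouring fetal over adult globin.

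The libraries held between 17261160 and 24423239 estimated counts. The fusion's partner genes were higher where the labels place the fusion: JAZF1 had 12 and 27 counts in mock and 574 and 731 with the fusion, and SUZ12 had 2781 and 2798 against 4754 and 6582. Identity was checked with fixed marker lists. Over all genes tested by edgeR, 24.7% were called, with 13.3% higher and 11.4% lower. All 10 erythroid markers were tested and 4 were called higher, with a summed level of 9970 and 9668 counts per 1000000 (CPM) in mock 1 and 2 and 11432 and 11314 CPM in JAZF1-SUZ12 1 and 2. The 10 endometrial stromal markers summed to 31.6 and 30.9 CPM in mock and to 62.3 and 63.2 CPM with the fusion. Of 4 tested, COL1A1 and MME were called higher, and PGR and DCN were not called. Group means rose from 5.79 to 21.4 CPM for COL1A1 and from 19.4 to 33.5 CPM for MME, which carried most of the rise of the sum. The remaining markers had too few counts to be tested, and LUM was at 0 throughout. The 15 neural markers summed to 128 and 133 CPM against 164.3 and 164.5 CPM. Of 5 tested, only SYP was called, at 38.8 and 39.9 CPM in mock and 69.6 and 73.9 CPM with the fusion. TUBB3, NEUROD1, PAX6 and NES were not called. In every library, 6 of the 15, SOX2 among them, had at most 3 counts. The 11 pluripotent and germ cell markers summed to 4.94 and 6.996 CPM against 7.24 and 7.25 CPM, with none of 3 tested called by edgeR. The part of these markers in the results was not tested.

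Across the transcriptome, 14750 genes had enough counts to be tested by edgeR's quasi-likelihood test, and a gene is named called where its Benjamini-Hochberg adjusted p over all of them was under 0.05. Of the 10 RNA-binding protein genes, 7 could be tested: 1 was called higher, 2 were called lower and 4 were not called. The background over the 14750 genes was 24.7% called, with 13.3% higher and 11.4% lower. The libraries of the groups did not overlap in CPM for 5 of the 7 genes, against 61.0% of all genes tested. The median log2 fold change was -0.064 over the 7 genes and 0.0032 over all genes. Since the genes were chosen with this contrast in view, nothing is read from these counts.

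**Figure D1:**
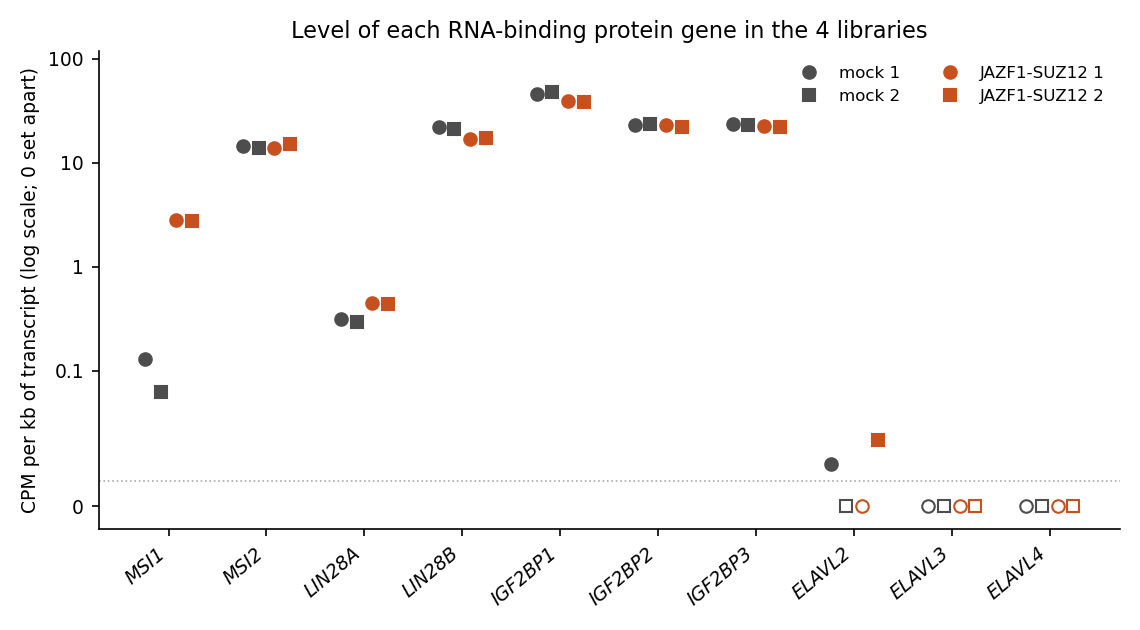
Level of each of the 10 genes in each library, as CPM per kilobase of its longest transcript on a log axis, with values of 0 set apart below the dotted line as open symbols. MSI1 moves from 0.132 and 0.063 in the mock libraries to 2.82 and 2.78 in the JAZF1-SUZ12 libraries, while ELAVL3 and ELAVL4 lie at 0 in all 4.

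MSI1 (ENSG00000135097; GRCh38 chromosome 12, 120341330 to 120369180, minus strand) was barely detected in mock cells. It had 8 counts in mock 1 and 4 in mock 2, against 145 and 202 in JAZF1-SUZ12 1 and 2. Scaled for depth, these are 0.391 and 0.188 CPM in mock and 8.40 and 8.27 CPM with the fusion. Both JAZF1-SUZ12 libraries lay far above both mock libraries and close to each other. The means were 0.290 ± 0.144 and 8.34 ± 0.0916 CPM (± SD, n = 2). The log2 fold change came to 4.81 (SE 0.32), or 28.0-fold, and 38 of the 14750 genes, MSI1 included, had one at least as large. The size rested on the few mock counts: it was 5.40 without mock 1 and 4.36 without mock 2.

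No other gene of the table overlaps MSI1 in the annotation on either strand. Within 100 kb on both sides, 6 other genes were tested. Among them TRIAP1, an inhibitor of apoptosis induced by p53, fell from 44.5 ± 0.776 to 33.3 ± 0.321 CPM (± SD, n = 2), or -0.44 on the log2 scale (adjusted p = 0.000273 by edgeR). The remaining 5 were not called. SIRT4, a mitochondrial sirtuin, had 20 and 38 counts in mock and 38 and 72 with the fusion, 0.88 on the log2 scale (SE 0.37; adjusted p = 0.093 by edgeR). PXN, COX6A1, GATC and SRSF9 had log2 fold changes between -0.033 and 0.12.

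MSI2 (ENSG00000153944; chromosome 17, 57255851 to 57684685, plus strand), the Musashi gene of blood cells, was well detected in every library. It stood at 92.1 and 89.5 CPM in mock and at 88.5 and 97.04 CPM with the fusion, so the mock values lay between the JAZF1-SUZ12 values. The log2 fold change came to 0.013 (SE 0.058), and its sign turned when a library was left out (from -0.045 to 0.058).

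MSI1 thus made up more of the Musashi family with the fusion, while MSI2 overlapped between the groups. Per kilobase of transcript, MSI1 made up 0.901% and 0.447% of the Musashi signal in mock and 16.9% and 15.4% in JAZF1-SUZ12 libraries. The summed Musashi level was 14.6 and 14.1 CPM per kb in mock and 16.7 and 18.03 CPM per kb with the fusion. MSI2 was still the more abundant form in all 4 libraries, at 4.93-fold and 5.48-fold the level of MSI1 with the fusion. In mock the ratio was 110-fold in mock 1 and 223-fold in mock 2, where MSI1 had 8 and 4 counts. In bulk libraries, more cells with MSI1 RNA and more MSI1 RNA per cell cannot be told apart.

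**Figure D2:**
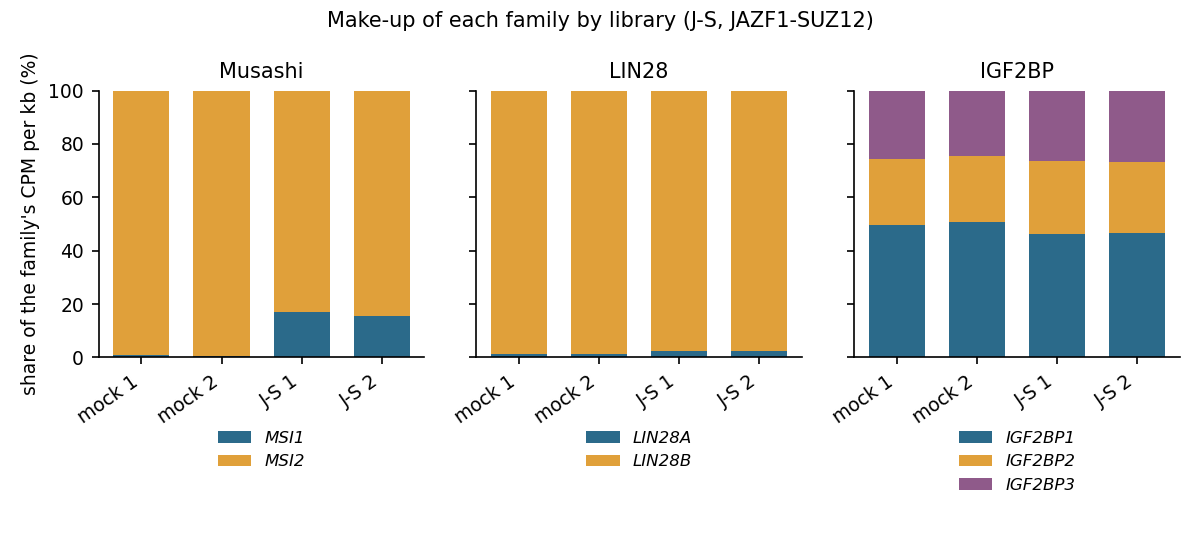
Share of each gene in the summed CPM per kilobase of its family, as a percentage, in mock (mock 1, mock 2) and JAZF1-SUZ12 (J-S 1, J-S 2) libraries. MSI1 takes under 1% of the Musashi bar in mock and 15.4% to 16.9% with the fusion, whereas LIN28B takes over 97% of the LIN28 bar in every library.

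LIN28B (ENSG00000187772; chromosome 6, 104936616 to 105083332, plus strand) was the main LIN28 gene of these cells. Its level was 121 and 116 CPM in mock 1 and 2 and 94.5 and 95.7 CPM in JAZF1-SUZ12 1 and 2. Both fusion libraries lay below both mock libraries, and each pair was tight. The means were 119 ± 3.12 and 95.1 ± 0.847 CPM (± SD, n = 2), -0.34 on the log2 scale (SE 0.053), which is a decrease by 21.0%. Leaving out 1 library at a time gave values from -0.38 to -0.32.

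LIN28A (ENSG00000131914; chromosome 1, 26410778 to 26429722, plus strand), the form typical of pluripotent cells, was at a low level. It had 26 and 25 counts in mock and 31 and 43 with the fusion, or 1.27 and 1.17 against 1.80 and 1.76 CPM. The groups did not overlap, but the log2 fold change was 0.52 (SE 0.38), so a difference was not detectable at this depth. LIN28A made up 1.37% to 1.42% of the LIN28 signal per kilobase in mock and 2.46% to 2.54% with the fusion. The summed LIN28 level was 22.3 and 21.4 CPM per kb in mock and 17.6 and 17.8 CPM per kb with the fusion.

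Per kilobase of transcript, the IGF2BP genes were the most abundant of the set. In CPM, IGF2BP1 was highest, but IGF2BP2 lay below LIN28B and MSI2 in both groups. IGF2BP1 (ENSG00000159217; chromosome 17, 48997412 to 49055650, plus strand) stood at 383 and 397 CPM in mock 1 and 2 and at 329 and 322 CPM in JAZF1-SUZ12 1 and 2. As with LIN28B, both fusion libraries were below both mock libraries. The means were 390 ± 10.2 and 325 ± 5.50 CPM (± SD, n = 2), -0.28 on the log2 scale (SE 0.045), a decrease by 17.8%. A processed pseudogene inside the gene had between 1 and 14 counts.

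IGF2BP2 (ENSG00000073792; chromosome 3, 185643739 to 185825056, minus strand), the paralogue that many adult tissues keep, was at 86.2 and 86.6 CPM in mock and at 86.3 and 81.6 CPM with the fusion, and the groups overlapped. Its log2 fold change was -0.064 (SE 0.058). IGF2BP3 (ENSG00000136231; chromosome 7, 23310209 to 23470467, minus strand), an oncofetal marker in many carcinomas, was at 101 and 98.1 CPM in mock and 96.3 and 95.1 CPM with the fusion. Its groups did not overlap, but the fusion libraries differed from mock by -5.43%, with -0.081 on the log2 scale (SE 0.055). MALSU1 overlaps IGF2BP3 on the opposite strand with 547 to 878 counts, and the sources do not say whether counting was strand-specific, so the IGF2BP3 value is less certain than those of its paralogues. IGF2BP2 and IGF2BP3 were not called. IGF2BP1 made up 49.5% and 50.8% of the family's signal per kilobase in mock and 46.4% and 46.6% with the fusion.

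The neuronal ELAV-like genes were not detectable. ELAVL3 (chromosome 19, 11451326 to 11481046) and ELAVL4 (chromosome 1, 50048014 to 50203786) had 0 counts in all 4 libraries. A count of 0 allows up to 3 counts, or between 0.123 and 0.174 CPM depending on the library, for counting error only. ELAVL2 (chromosome 9, 23690104 to 23826337) had 1 and 0 counts in mock and 0 and 2 with the fusion. All 3 were thus at the floor in both groups, and no fold is given. Their ubiquitous paralogue ELAVL1 (HuR) was present at 190 and 188 CPM in mock and at 181 and 170 CPM with the fusion, and was not called (edgeR, log2 fold change -0.13, adjusted p = 0.0722).

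Levels were ordered alike in both groups for the abundant genes. In mock, IGF2BP1 was highest at 47.1 ± 1.23 CPM per kb, and IGF2BP3 and IGF2BP2, at 23.4 ± 0.517 and 23.4 ± 0.0771, did not differ beyond their spread. LIN28B followed at 21.6 ± 0.567 and MSI2 at 14.3 ± 0.284 CPM per kb (SD, n = 2). LIN28A and MSI1 lay far below, at 0.305 ± 0.0173 and 0.097 ± 0.048 CPM per kb. With the fusion, IGF2BP2 and IGF2BP3 again overlapped and the order was otherwise the same except that MSI1, at 2.80 ± 0.0308 CPM per kb, passed LIN28A at 0.444 ± 0.00623 CPM per kb (SD, n = 2).

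The authors' deposited table gave an adjusted p for the same 7 genes and called 2 of them, MSI1 and LIN28B, at the same threshold; it called 8.50% of all genes with an adjusted p. Its log2 fold changes were 4.93 for MSI1 and -0.37 for LIN28B. For IGF2BP1, the authors' deposited table gave a smaller log2 fold change of -0.16 (SE 0.074) and did not call it. DESeq2 run here on the deposited counts gave -0.28 for IGF2BP1, and the reason for the difference was not tested. For IGF2BP2 the authors' deposited table gave 0.072, on the other side of 0 from the value of the fit made here.

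**Figure D3:**
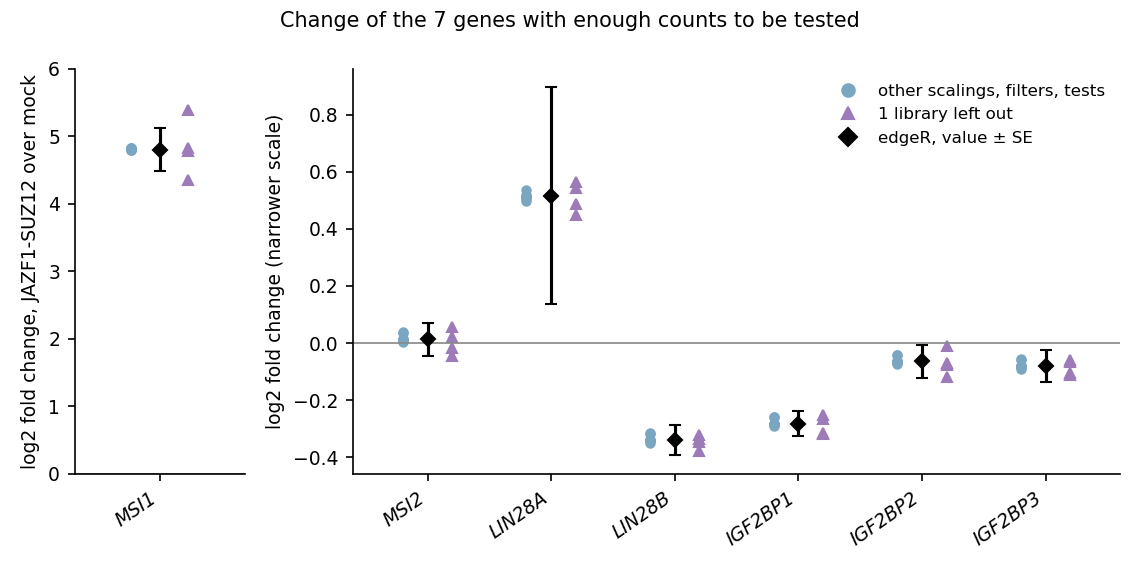
Log2 fold change of the 7 tested genes, JAZF1-SUZ12 over mock, with MSI1 on its own axis. Diamonds give the edgeR value with its standard error (n = 2 libraries per group), circles the other scalings, filters and tests, and triangles the fits with 1 library left out; MSI1 ranges from 4.36 to 5.40, and LIN28B and IGF2BP1 lie below 0 in every fit shown.

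LIN28 and IGF2BP messages are textbook targets of let-7, so their 3′ untranslated regions were searched for the let-7 seed match. The let-7 family shares bases 2 to 8 from the 5′ end, shown in capitals for 3 of the 9 members that carry this seed in RefSeq (GRCh38.p14). The microRNAs themselves were not measured, since the libraries are poly(A)-selected messages.
hsa-let-7a-5p: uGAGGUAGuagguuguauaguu
hsa-let-7g-5p: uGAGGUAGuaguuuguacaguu
hsa-miR-98-5p: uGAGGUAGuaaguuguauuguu

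The match searched on the message strand was CTACCTC, in the 3′ untranslated region of 1 coding transcript per gene of GENCODE 29. It occurred at least once in 8.33% of 19563 such regions. All 5 LIN28 and IGF2BP genes held it, and none of the Musashi and ELAV-like genes did. For ELAVL4 the region of the transcript searched was only 224 bases long. LIN28A, IGF2BP2 and IGF2BP3 had 1 match each. LIN28B and IGF2BP1 had 4 each, and 12 regions, or 0.061% of all, had at least as many. This share is over regions of every length and was not matched for length. The sites of these 2 genes are printed with the 15 bases before the match, which is in capitals (GRCh38, plus strand).
LIN28B site 1, chr6:105078812-105078833: acccggttgcaaagtCTACCTC
LIN28B site 2, chr6:105081239-105081260: tactgatgatagtaaCTACCTC
LIN28B site 3, chr6:105081421-105081442: gtttacagcaaaaggCTACCTC
LIN28B site 4, chr6:105082860-105082881: aaatgatggtgttgaCTACCTC
IGF2BP1 site 1, chr17:49051061-49051082: tgtgtgcgaagtaaaCTACCTC
IGF2BP1 site 2, chr17:49053698-49053719: cagcagtgctagtaaCTACCTC
IGF2BP1 site 3, chr17:49054352-49054373: gtataaatggattaaCTACCTC
IGF2BP1 site 4, chr17:49054997-49055018: tcacttttgttttatCTACCTC

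A further adenine follows the match in 2 of the 4 LIN28B sites and in 3 of the 4 IGF2BP1 sites. The searched regions are 4549 and 6206 bases long. Of the 10 other genes with at least 4 matches, 7 could be tested and 1 was called lower, 1 higher and 5 not, beside 24.7% called over all genes. NR6A1, an orphan nuclear receptor of the germ line, fell from 80.7 ± 2.55 to 63.3 ± 3.01 CPM (± SD, n = 2), or -0.37 on the log2 scale (adjusted p = 0.000331 by edgeR). ZBTB37, a zinc finger gene, rose by 0.24 on the log2 scale (adjusted p = 0.0364 by edgeR). It was not called with DESeq2 (adjusted p = 0.186), without JAZF1-SUZ12 2 (adjusted p = 0.211) or without mock 1 (adjusted p = 0.267). TRIM71 and HMGA2, classic let-7 targets with 6 and 4 matches, had at most 13 and 10 counts and were not tested.

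Over the transcriptome, genes with and without a match were also set side by side; the difference was not tested. Leaving out the set itself, 1315 tested genes held at least 1 match, of which 17.5% were called higher and 10.04% lower. Without a match, 13.4% of 12240 genes were called higher and 12.4% lower. The median log2 fold change was 0.020 with a match and -0.0051 without. The classes also differ in the median length of the region, 2805 against 909 bases, whose part in these shares was not tested.

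Of 13 tested genes that make and turn over let-7, 1 was called higher and 3 lower, which is 30.8% against 24.7% of all genes, with a median log2 fold change of -0.032. The other lists are read against the same shares over all genes, 13.3% higher and 11.4% lower, and nothing particular to a list was tested. AGO4, an Argonaute protein, rose by 0.32 (adjusted p = 0.00807 by edgeR). KHSRP, which promotes let-7 processing, fell by 0.20 (adjusted p = 0.00351 by edgeR), and XPO5, the exporter of precursor microRNAs, and AGO1 fell by 0.18 and 0.19 on the log2 scale (adjusted p = 0.00937 and 0.0110 by edgeR). AGO4 was not called with DESeq2 (adjusted p = 0.058), nor XPO5 without mock 1 (adjusted p = 0.0785); POLR1C overlaps XPO5 on the opposite strand. DICER1, DROSHA, TUT4, TUT7 and DIS3L2, which cut, tail or degrade let-7 precursors, were not called. Among host transcripts of let-7, HUWE1 was analysed, at 479 and 513 CPM in mock and 491 and 512 CPM with the fusion (adjusted p = 0.966 by edgeR); the other 5 were not analysed here.

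Known targets of let-7 and LIN28 moved in both directions. Of 22 tested, 4 were called higher and 6 lower, with a median of -0.048. INSR, the insulin receptor, had 87 and 192 counts in mock and 395 and 613 with the fusion, or 1.83 on the log2 scale (adjusted p = 8.07e-06 by edgeR), which was 2.46 without mock 2 and 1.38 without mock 1. IGF1R, the receptor of IGF1 and IGF2, rose by 0.58 and ARID3B, a DNA-binding protein, by 0.33 (adjusted p = 0.00111 and 0.0011 by edgeR). TGFBR1, RRM2 and CDK6, a TGF-beta receptor, a ribonucleotide reductase subunit and a cell cycle kinase, fell by 0.31, 0.23 and 0.23 on the log2 scale (adjusted p = 0.00108, 0.00164 and 0.00316 by edgeR). The 6 lower calls were 3 with DESeq2, and 3 without JAZF1-SUZ12 2 or without mock 1.

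Among messages known to be bound by IGF2BP proteins, the one after which the family is named stood out. IGF2, a fetal growth factor, had 14 and 18 counts in mock and 134 and 200 with the fusion, that is 0.685 and 0.845 against 7.76 and 8.19 CPM. Both fusion libraries lay well above mock, with 3.35 on the log2 scale (SE 0.26; adjusted p = 1.85e-07 by edgeR). Overlapping entries of the locus, the INS-IGF2 read-through among them, had 0 counts. CD44, a hyaluronan receptor, rose from 17.9 ± 0.144 to 39.8 ± 0.126 CPM (± SD, n = 2; adjusted p = 7.74e-08 by edgeR), and ABCB1, a drug efflux pump, rose by 0.56 (adjusted p = 0.00378 by edgeR). ACTB fell by 0.27 and FSCN1, an actin bundler, by 0.13 on the log2 scale (adjusted p = 0.000329 and 0.0423 by edgeR). In all, 3 of 14 tested were called higher and 2 lower, with a median of 0.012 that was -0.020 without mock 1. FSCN1 was not called without JAZF1-SUZ12 2 (adjusted p = 0.267), without mock 1 (adjusted p = 0.0644) or without mock 2 (adjusted p = 0.0973).

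Reported Musashi targets and Notch pathway genes held 4 higher and 2 lower calls among 19 tested, with a median of 0.041. NOTCH2, a Notch receptor, rose from 7.28 ± 1.92 to 35.6 ± 0.779 CPM (± SD, n = 2), or 2.26 on the log2 scale (adjusted p = 8.15e-09 by edgeR). JAG1, a Notch ligand, had 11 and 17 counts in mock and 51 and 128 with the fusion, or 2.60 on the log2 scale (adjusted p = 0.000137 by edgeR). CDKN1A, the cell cycle inhibitor p21 whose message Musashi is reported to repress, rose by 0.86 (adjusted p = 5.85e-07 by edgeR). TGFBR1, given above, and JAG2, another Notch ligand, were lower; JAG2 changed by -0.22 (adjusted p = 0.0289 by edgeR) and was not called with DESeq2 (adjusted p = 0.12), without JAZF1-SUZ12 2 (adjusted p = 0.166) or without mock 2 (adjusted p = 0.202). NUMB, the classic Musashi target, was at 64.1 and 67.5 CPM in mock and at 60.8 and 66.2 CPM with the fusion and was not called (adjusted p = 0.464 by edgeR).

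Of 18 tested writers, erasers and readers of methylated adenosine, the mark that IGF2BP proteins recognise, 8 were called lower and 1 higher, with a median log2 fold change of -0.11. Over all genes 11.4% were called lower and 13.3% higher, and the ubiquitous RNA-binding proteins described next also held 8 lower and 1 higher calls, among 28. HNRNPA2B1, a nuclear reader, fell by 0.16, WTAP, a subunit of the writer complex, by 0.21, and YTHDF3, a cytoplasmic reader, by 0.23 on the log2 scale (adjusted p = 0.0073, 0.00918 and 0.0142 by edgeR). ALKBH5, an eraser, rose by 0.19 (adjusted p = 0.0190 by edgeR). HNRNPA2B1 and WTAP overlap CBX3 and SOD2 on the opposite strand, so their values are less certain. The lower calls numbered 5 with DESeq2, 3 without JAZF1-SUZ12 2, 5 without mock 1 and 4 without mock 2. WTAP was not called without JAZF1-SUZ12 2 (adjusted p = 0.0736) and YTHDF3 not without mock 2 (adjusted p = 0.118). ALKBH5 was not called with DESeq2 (adjusted p = 0.0649), without JAZF1-SUZ12 1 (adjusted p = 0.0535), without mock 1 (adjusted p = 0.0873) or without mock 2 (adjusted p = 0.102).

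Other RNA-binding proteins gave the setting for the 10 genes. Of 28 ubiquitous ones, all were tested, with 1 called higher and 8 lower and a median of -0.082. HNRNPU, G3BP1 and PTBP1, which act in nuclear RNA, stress granules and splicing, fell by 0.19, 0.18 and 0.17, and ZFP36L1, which destabilises AU-rich messages, rose by 0.29 on the log2 scale (adjusted p = 0.00284, 0.00687, 0.0073 and 0.00656 by edgeR). COX20 and ATOX1 overlap HNRNPU and G3BP1 on the opposite strand. Lower calls ranged from 3 without JAZF1-SUZ12 2 and 5 without mock 2 to 15 without JAZF1-SUZ12 1, and ZFP36L1 was not called without mock 1 (adjusted p = 0.122). Among 17 neural RNA-binding proteins, 11 were tested and 1 was called: SRRM3, a splicing factor of neuronal microexons, rose from 5.62 ± 0.820 to 19.8 ± 0.422 CPM (± SD, n = 2), or 1.79 on the log2 scale (adjusted p = 1.67e-07 by edgeR). Among 17 germline RNA-binding proteins, 7 had at most 3 counts in every library, 4 were tested and TDRKH, a piRNA pathway protein, rose by 0.44 on the log2 scale (adjusted p = 0.000408 by edgeR).

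**Figure D4:**
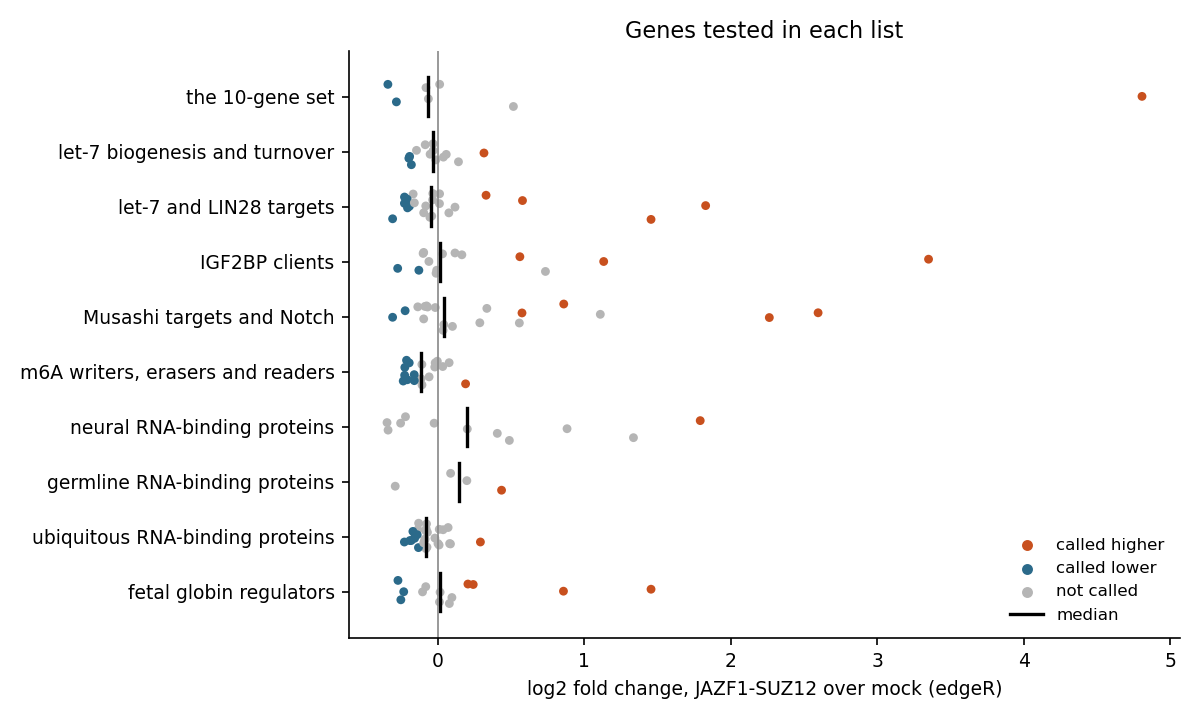
Log2 fold change, JAZF1-SUZ12 over mock, of each gene tested in the set and in the fixed lists, coloured by call, with a bar at each list's median. MSI1 lies farthest to the right at 4.81, followed by IGF2 among the IGF2BP clients at 3.35, while the genes called lower lie closer to 0, with LIN28B at -0.34.

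The fetal globin programme, with which LIN28B and IGF2BP1 are linked in the red cell lineage, was looked at last. Of 13 genes tested, which include the globin genes themselves beside their regulators, 4 were called higher and 3 lower, with a median of 0.016. BCL11A, the repressor of fetal globin, had 15 and 16 counts in mock and 31 and 57 with the fusion, 1.46 on the log2 scale (SE 0.41; adjusted p = 0.0164 by edgeR). It was not called with DESeq2 (adjusted p = 0.0598), without JAZF1-SUZ12 2 (adjusted p = 0.199) or without mock 1 (adjusted p = 0.0597). ZBTB7A, another repressor of fetal globin, fell by 0.27, MYB by 0.25 and CHD4, a chromatin remodeller, by 0.23 on the log2 scale (adjusted p = 0.00317, 0.00135 and 0.000753 by edgeR). The embryonic globins HBZ and HBE1 rose by 0.86 and 0.24 and the fetal globin HBG1 by 0.21 (adjusted p = 2.47e-09, 0.000319 and 0.00125 by edgeR). HBG2, the other and more abundant fetal globin, was not called, at 0.096 on the log2 scale (adjusted p = 0.0838 by edgeR). Reads can be divided among the globin genes, so these values are less certain.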

How the data were processed

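The authors deposited a table of estimated counts per gene, named as raw counts and not scaled for depth; between 29.9% and 33.6% of a library's values are not whole (tolerance 0.000001). The submitters' processing notes name kallisto 0.46.2, fastp 0.20.1, DESeq2 1.30.1 and hg38; the annotation is not given in the sources used here. The authors also deposited their own comparison: per the file headers it holds a mean signal (normalized counts), a log2 fold change with its standard error, a score (the test statistic) and a p-value, raw and adjusted. It is quoted only where named.

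Counts were rounded, because the design had assumed whole numbers, filtered with filterByExpr, scaled by TMM and compared by edgeR 4.0.16 (quasi-likelihood F test, group only, R 4.3.3), with adjustment over 14750 genes. The SE printed with an edgeR value was derived from the test, as the size of the log2 fold change divided by the square root of its F statistic. Levels between genes are CPM per kb of the longest GENCODE 29 transcript, and 35410 of 35606 IDs matched. let-7 matches were sought in the coding transcript of highest APPRIS rank, principal before alternative, and in the longest among equals. Tested on simulated counts for this comparison, edgeR recovered 195 of 200 genes changed 2-fold among 14680, with 10 false calls. Every simulated gene had the same dispersion, and the changed genes had a mean of at least 50 counts. The simulation therefore says nothing of smaller changes, of genes with few counts, or of false calls where the spread differs between genes. From each list the text names up to 3 genes called in each direction, by smallest p; ELAVL1, NUMB, BCL11A, NR6A1, ZBTB37 and genes named as not called were chosen after their values were seen. The genes and lists were chosen with earlier results of these data known. Alternatives were DESeq2 1.42.0, limma-voom (limma 3.58.1), other scalings and filters, unrounded counts, a replicate block and each library left out.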

Additional observations from a re-analysis of the deposited data

How the results depend on the processing

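The 7 tested genes of the set are given as a description that supports nothing. Each stayed on its side of the threshold under every alternative fit to the deposited counts that gave a value. The authors' deposited table, which did not call IGF2BP1, is not among these fits. Within these fits, only MSI2, which was not called, changed sign (from -0.045 to 0.058 with 1 library left out). When 1 library is dropped its group has a single sample, assumed to vary like the other group. With that, MSI1 ranged from 4.36 to 5.40, LIN28A from 0.45 to 0.56, LIN28B from -0.38 to -0.32, IGF2BP1 from -0.32 to -0.25, IGF2BP2 from -0.12 to -0.010 and IGF2BP3 from -0.11 to -0.058. Over the other 8 fits, MSI1 lay between 4.797 and 4.83, LIN28B between -0.35 and -0.32 and IGF2BP1 between -0.29 and -0.26; LIN28A fell below the filter of a mean of 50 counts and had 7. The 3643 genes called numbered 2407 by DESeq2, 2045 at the stricter adjusted p of 0.01, and 837 with at least a 2-fold change at 0.05, where the 1955 higher became 1255 and 819 at those thresholds and the 1688 lower became 790 and 18; the thresholds reduce counts by construction. DESeq2 gave 1051 lower, and the cause was not tested. Leaving out 1 library gave from 2568 to 3782 genes, from 1498 to 1841 higher and from 1070 to 1941 lower, with 1070 without JAZF1-SUZ12 replicate 2. A replicate block gave 4061 called genes, and no call of the set changed; same-numbered libraries did not deviate together (r = -0.001 across genes for number 1), so the numbers are not read as pairs. Small list counts also moved: the neural RNA-binding proteins held 3 higher calls in place of 1 with the block or a mean of at least 50 counts, and the IGF2BP clients 1 lower call in place of 2 with that filter. Depth limits LIN28A and the ELAV-like genes, whose differences were not detectable.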
